A study of Homo sapiens with 6 samples.

Results

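Toll-like receptors are membrane proteins that recognise microbial lipids, proteins and nucleic acids, and this family was followed here through 10 genes in MM.1S, an established line of human myeloma cells. The genes were taken by symbol from the 60671 genes of the deposited table: the receptors TLR1, TLR2, TLR4, TLR6, TLR7, TLR9 and TLR10, the receptor-like protein CD180, the TLR4 co-receptor LY96 and the adaptor MYD88. All 10 symbols were found once each, and 7 of them passed the filter on low counts (TLR1, TLR4, TLR6, TLR7, CD180, LY96 and MYD88), while TLR2, TLR9 and TLR10 did not.

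The study compared wild-type MM.1S cells (WT) with a CRISPR/Cas9 clone lacking CD38 (CD38 KO, called the clone below), with 3 libraries in each group, to describe the phenotype of the clone. Cells of both groups carried green fluorescent protein and click beetle red luciferase from a lentivirus, were grown in the same medium with no treatment named in the labels, and were sorted as live cells, CD38-positive for WT and CD38-negative for the clone. The replicates were prepared from these sorted populations, so p-values measure the spread between such preparations. Because the knockout is 1 clone, a difference due to loss of CD38 and a difference particular to that clone cannot be told apart.

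Receptors of the cell surface (TLR1, TLR2, TLR4, TLR6 and TLR10) read microbial lipids and proteins, TLR2 pairing with TLR1 or TLR6, and TLR4 binding lipopolysaccharide together with LY96 (MD-2). Receptors of the endosome (TLR7 and TLR9) read RNA and DNA. CD180 (RP105) resembles TLR4 outside the cell but lacks the signalling domain, and it is carried by its partner LY86 (MD-1). MYD88 links the receptors of the family other than TLR3 to the IRAK kinases, NF-kB and interferon regulatory factors. Toll-like receptors are typical of B cells and myeloid cells, and myeloma cells are known to express several of them.

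TLR1 and TLR6 are treated together below, since their genes overlap and parts of them are identical. In GENCODE release 29 (build GRCh38) TLR1 spans chr4:38790677-38856817 and TLR6 chr4:38823715-38856817, both on the minus strand. Of the 10 annotated TLR1 transcripts 1 starts at position 38856817, as do 3 of the 5 TLR6 transcripts, and the genes share 57 exonic bases. The coding sequences of transcripts TLR1-201 (2361 bases) and TLR6-201 (2391 bases) were identical at 77.9% of 2347 aligned bases. Their longest identical run was 218 bases, and 10.3% of the 2312 stretches of 50 bases in the TLR1 coding sequence occurred unchanged in that of TLR6, against 0 in that of TLR10. The start of that run is shown from the GENCODE transcripts with 30 preceding bases, from base 1349 to 1468 of the TLR1 coding sequence. Capitals mark the bases that differ from TLR1, 1 of 120 in TLR6 (bases 1364 to 1483) and 45 of 120 in TLR10 (bases 1343 to 1462).
TLR1: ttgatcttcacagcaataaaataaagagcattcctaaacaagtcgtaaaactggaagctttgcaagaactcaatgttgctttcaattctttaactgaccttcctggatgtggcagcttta
TLR6: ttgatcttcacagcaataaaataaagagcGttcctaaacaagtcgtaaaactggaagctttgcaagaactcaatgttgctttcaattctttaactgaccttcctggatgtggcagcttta
TLR10: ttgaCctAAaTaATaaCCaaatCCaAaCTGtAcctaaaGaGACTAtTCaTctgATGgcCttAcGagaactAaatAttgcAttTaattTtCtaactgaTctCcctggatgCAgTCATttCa
Reads from such a stretch can come from either gene, and how the counting treated them is not stated in the sources used here; the split between TLR1 and TLR6 is therefore uncertain.

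The libraries held 61515519 to 72335496 counts, and levels are given as CPM, counts per 1000000 counts after TMM scaling, a correction for library composition. A library with 0 counts of a gene allows up to 3 counts, which is 0.0405 to 0.0504 CPM depending on the library and covers counting error only. CD38 itself had 3148, 2678 and 2545 counts in WT and 51, 80 and 48 in the clone, which accords with the labels. Log2 changes are log2 fold changes of CD38 KO over WT from edgeR's quasi-likelihood test across 20120 genes, with Benjamini-Hochberg adjustment, and a gene was called changed at an adjusted p under 0.05. The plasma cell markers listed for this work summed to 7139 to 7145 CPM in WT and 9088 to 9121 CPM in the clone, with SDC1 (CD138) at 1204 ± 58.8 CPM in the former and 1235 ± 34.3 CPM in the latter (SD, n = 3). Of the 8 tested, 5 rose, among them JCHAIN from 943.2 ± 37.1 to 1950.1 ± 34.9 CPM, and 2 fell, SLAMF7 from 733.2 ± 2.67 to 565.8 ± 7.02 CPM and MZB1 from 1188 ± 17.7 to 1018 ± 36.2 CPM (SD, n = 3). For comparison, 22.8% of all tested genes were called higher and 21.6% lower. The label calls the cells B lymphoblasts. Of the 9 B cell markers listed 4 passed the filter, CR2 at 51.08 ± 2.97 and CD79B at 27.05 ± 0.178 CPM in WT (SD, n = 3) being the most abundant, while MS4A1 and PAX5 had at most 4 counts in any library.

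Against WT, 5 of the 7 tested genes fell in the clone (TLR1, TLR4, TLR6, TLR7 and MYD88), 1 rose (CD180) and LY96 was not called. Over all tested genes 44.4% were called, 21.6% lower and 22.8% higher, and the scaling moved that split: with library size alone 3632 were higher and 5570 lower. Of the members, 4 fell at least 2-fold (TLR1, TLR4, TLR6 and TLR7), as did 5.26% of all tested genes. For 6 of the 7 every library of one group lay above every library of the other, as for 52.5% of all tested genes. The median log2 change was -1.55 over the 7 members and 0.000212 over all genes. CD180 is included in these counts and in the median, although it passed the filter only through the libraries of the clone. In bulk RNA, fewer cells with a transcript and less of it per cell cannot be told apart.

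**Figure D1:**
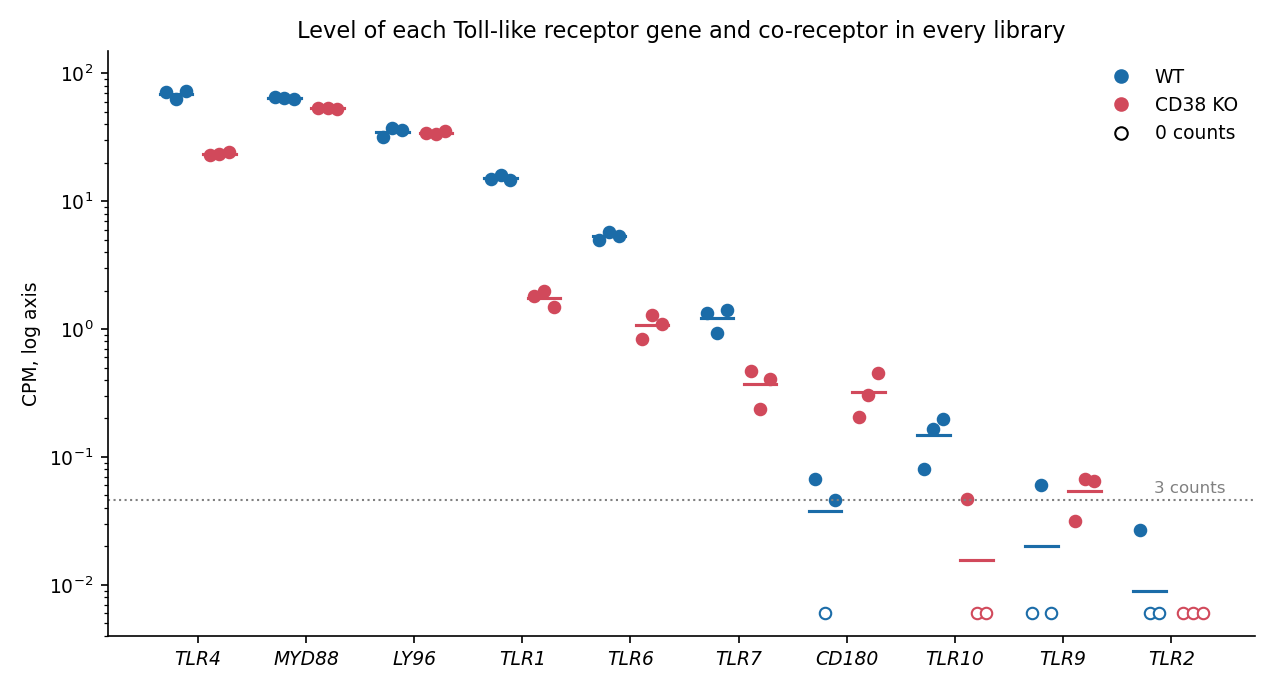
Level of each of the 10 genes in every library, in CPM on a log axis, WT in blue and CD38 KO in red, with a line at the mean of each group. Open circles at the bottom are libraries with 0 counts and the dotted line marks the average level of 3 counts. TLR4, TLR1, TLR6 and TLR7 sit lower in all 3 CD38 KO libraries, LY96 overlaps, and TLR2, TLR9 and TLR10 lie near or under the line in CD38 KO.

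TLR4 (ENSG00000136869, chr9:117704175-117724730, plus strand) was the most abundant receptor of the family by CPM in both groups. It stood at 71.9, 62.4 and 72.8 CPM in the WT libraries and at 22.96, 23.6 and 24.1 CPM in the libraries of the clone. Each library of the clone was below each WT library, and the 3 libraries of the clone lay closer together than the WT ones. The mean was 69.04 ± 5.76 CPM in WT against 23.5 ± 0.572 CPM in the clone (SD, n = 3), so that 34.1% of the WT level was left. The log2 change was -1.55 ± 0.0640 (SE; edgeR adjusted p = 3.26e-14). GENCODE 29 also lists a gene without a usual symbol, AL160272.2, that shares 558 exonic bases with TLR4, and it had 7 counts in all WT libraries together and 0 in the clone.

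LY96, the secreted protein that completes the lipopolysaccharide receptor, did not move with TLR4. The WT libraries were at 31.5, 37.4 and 36.1 CPM and the libraries of the clone at 34.2, 33.3 and 35.6 CPM. The values of the clone lay within the range of the WT values. The log2 change of LY96 (ENSG00000154589, chromosome 8) was -0.0251 ± 0.0686 (SE; edgeR adjusted p = 0.804), and over the alternatives it lay between -0.11 and 0.0223. CD14, which hands lipopolysaccharide to this receptor, had 2 to 4 counts in every library and was not tested.

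MYD88 (ENSG00000172936, chr3:38138478-38143022, plus strand) showed a small fall. It was at 65.8, 64.03 and 62.8 CPM in WT and at 53.2, 53.4 and 53.02 CPM in the clone. All values of the clone were lower, and they differed from one another by less than 1 CPM. The log2 change was -0.27 ± 0.0495 (SE; edgeR adjusted p = 1.14e-04), which leaves 82.8% of the WT level.

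The change of the receptor relative to its partners was read from the ratio of counts within each library. There were 2.28, 1.67 and 2.02 TLR4 counts per LY96 count in WT and 0.671, 0.708 and 0.678 in the clone. For TLR4 over MYD88 the ratios were 1.09, 0.975 and 1.16 in WT and 0.432, 0.441 and 0.455 in the clone. Neither pair of groups overlapped. A two-sided exact permutation test gave p = 0.1 for each, the smallest that 3 libraries against 3 allow, and 0.1 after Benjamini-Hochberg adjustment over the 3 ratios examined.

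**Figure D2:**
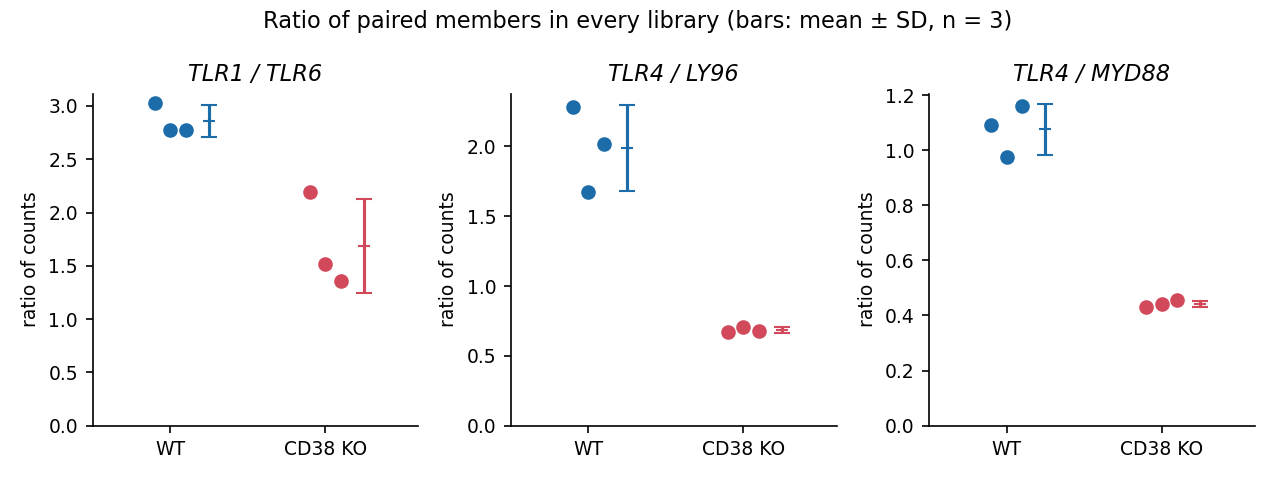
Ratio of the counts of 2 members within each library for TLR1 over TLR6, TLR4 over LY96 and TLR4 over MYD88, with each axis starting at 0. Points are libraries and bars the mean ± SD of 3. In each panel the 3 CD38 KO libraries (red) lie below the 3 WT libraries (blue).

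TLR1, a partner of TLR2 in reading triacylated lipopeptides, had the largest fall of the members tested. It was at 14.9, 15.98 and 14.8 CPM in the WT libraries and at 1.81, 1.97 and 1.49 CPM in the libraries of the clone. The groups were far apart, and 11.5% of the WT level was left. The mean was 15.2 ± 0.665 CPM in WT against 1.76 ± 0.246 CPM in the clone (SD, n = 3), with a log2 change of -3.12 ± 0.125 (SE; edgeR adjusted p = 2.15e-14).

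TLR6, which pairs with TLR2 to read diacylated lipopeptides, fell as well. It was at 4.93, 5.77 and 5.31 CPM in WT and at 0.829, 1.29 and 1.10 CPM in the clone. Again no library of the clone reached a WT library, and 20.1% of the WT level was left. The log2 change was -2.31 ± 0.186 (SE; edgeR adjusted p = 1.52e-09). There were 3.03, 2.77 and 2.78 TLR1 counts per TLR6 count in WT and 2.19, 1.52 and 1.35 in the clone, without overlap (two-sided exact permutation p = 0.1). When the counts of both genes were summed and tested as 1 gene, a fit added after the shared sequence had been seen, the log2 change was -2.86 ± 0.11 (SE; edgeR adjusted p = 1.07e-14).

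TLR10, whose ligands are less well known than those of its relatives, lies beside them at chr4:38772239-38782990 and was near the limit of counting. It had 6, 11 and 13 counts in WT and 3, 0 and 0 in the clone. Over the libraries together the level in WT was 9.001 times that in the clone, with a 95% counting interval of 2.80 to 46.1. TLR10 did not pass the filter on low counts. With no such filter its log2 change was -3.07 (edgeR adjusted p = 0.0287). Of 4 fits that left out 1 library and tested it, those without WT replicate 1 (-3.35, 0.0196) and without CD38 KO replicate 1 (-6.29, 0.00457) called it, and those without CD38 KO replicate 2 (-2.54, 0.0654) or 3 (-2.51, 0.0766) did not. In these 4 fits TLR10 passed the filter only through WT libraries, the group where it was high. Their calls are therefore not read as support.

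None of the genes tested around the cluster on chromosome 4 fell 2-fold. Of 12 neighbours listed, 11 were tested, 4 fell (36.4%) and 3 rose (27.3%), beside the 21.6% lower and 22.8% higher of all genes. FAM114A1, next to TLR6 on the opposite strand, had a log2 change of -0.78, WDR19, a component of ciliary transport, -0.83, and TBC1D1, a regulator of glucose transporter traffic, -0.49. The transcription factor KLF3, at 0.16, lay with TBC1D1 on the other side of the cluster from FAM114A1 and WDR19. The rises of KLF3, KLHL5 and RFC1 were not called with library size alone as the scaling, nor, with the fall of the ribosomal protein gene RPL9, without WT replicate 2 (edgeR adjusted p of 0.0751, 0.136, 0.0542 and 0.102).

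**Figure D3:**
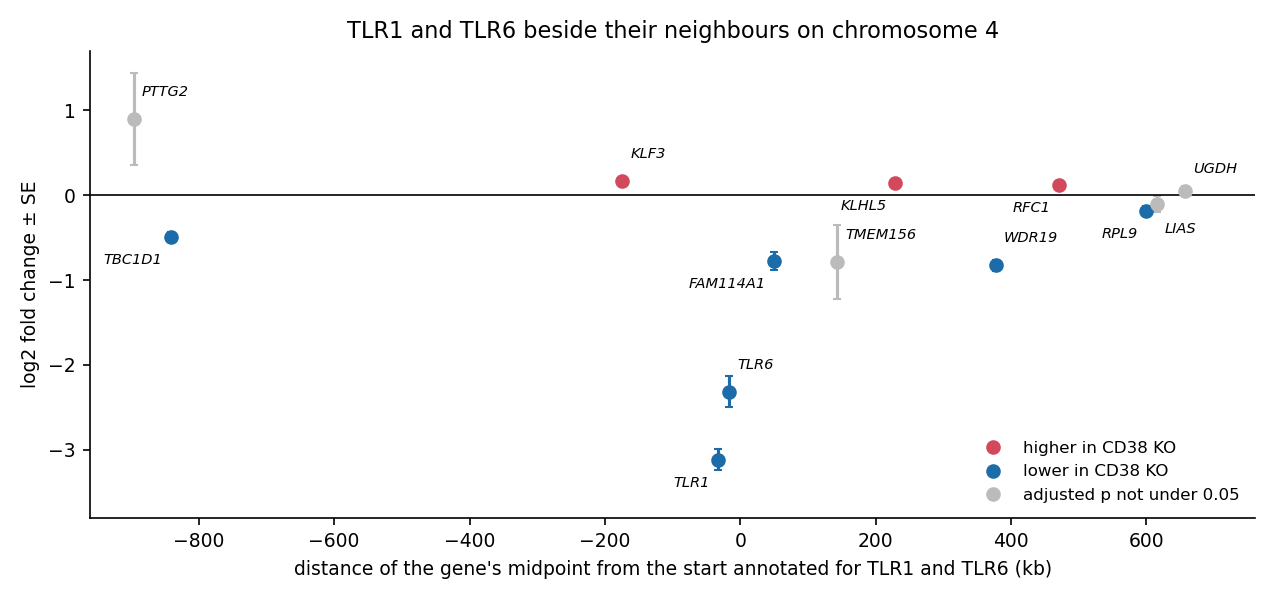
Log2 fold change ± SE of TLR1, TLR6 and the tested neighbours on chromosome 4 against the distance in kb of each gene's midpoint from the start annotated for both receptors. TLR1 and TLR6 lie at -3.12 and -2.31, while the tested neighbours lie between -0.83 and 0.90.

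TLR2, the common partner of TLR1 and TLR6, was almost undetected. A total of 2 counts came from WT replicate 1 and the other 5 libraries had 0, so no fold is given and no difference was detectable at this depth.

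Of the endosomal receptors, TLR7, a sensor of single-stranded RNA, fell from a low level. It had 98, 62 and 93 counts in WT and 30, 14 and 25 in the clone. The groups did not overlap, and the mean went from 1.23 ± 0.255 CPM to 0.369 ± 0.121 CPM (SD, n = 3). The log2 change of TLR7 (ENSG00000196664, chrX:12867083-12890380) was -1.72 ± 0.323 (SE; edgeR adjusted p = 1.56e-04).

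TLR9, the receptor for unmethylated CpG DNA, had 0, 4 and 0 counts in WT and 2, 4 and 4 in the clone. These values overlapped, and TLR9 was too low to test. Of its exonic bases in GENCODE 29, 86.3% also belong to AC097637.1, a gene that joins TLR9 with its neighbour and had 0 counts in every library. How the counting treated reads that fall in both genes is not stated in the sources used here. Low counts of TLR9 therefore need not mean a low level, and this was not tested.

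CD180 (ENSG00000134061, chr5:67179613-67196799, minus strand) was the member that rose, at very low counts. It had 5, 0 and 3 counts in WT and 13, 18 and 28 in the clone. The libraries of the clone were all higher, and over the libraries together the level was 8.19 times that of WT, with a 95% counting interval of 3.90 to 19.9. The log2 change was 2.99 ± 0.721 (SE; edgeR adjusted p = 0.00181), and it went to 3.70 without WT replicate 1 and 2.44 without WT replicate 2. CD180 passed the filter only through the libraries of the clone, and a gene kept in that way had to differ; the call is therefore not read as support. LY86, which carries CD180 to the surface and is named here after its values were seen, went the other way, with 198, 196 and 134 counts in WT and 48, 31 and 43 in the clone (log2 change -1.96, edgeR adjusted p = 8.26e-07).

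**Figure D4:**
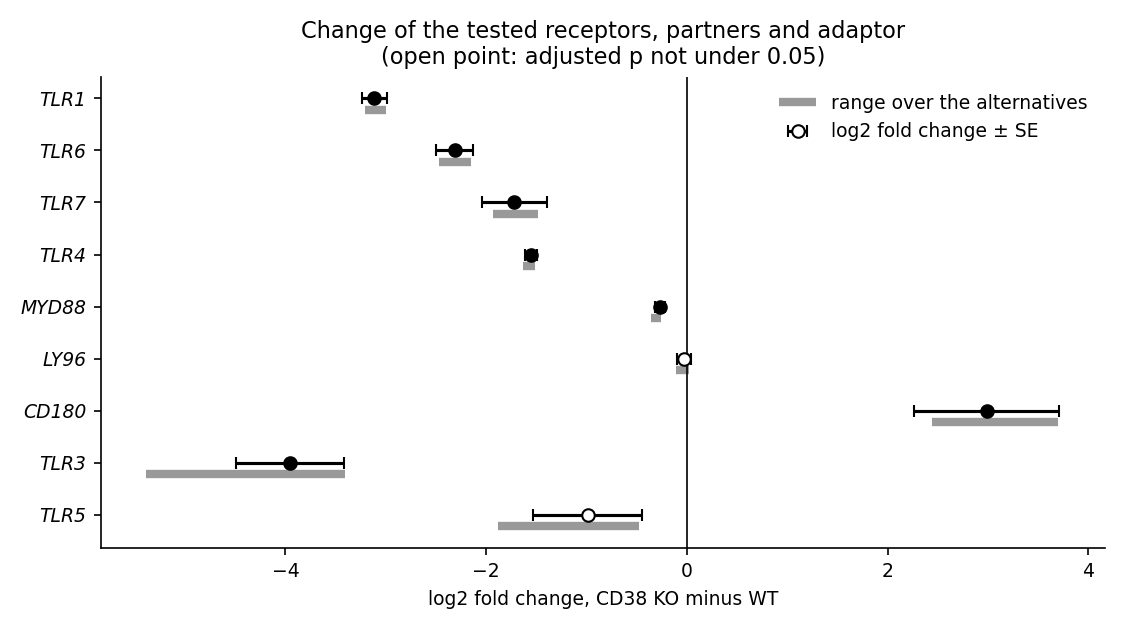
Log2 fold change ± SE (points with bars) of the 7 tested members and of TLR3 and TLR5, with the range over the alternative settings as a grey bar under each. Filled points have an adjusted p under 0.05. TLR1 lies at -3.12, CD180 at 2.99 and LY96 at -0.03.

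Per length the order of the members differed from that by CPM. With CPM divided by the exonic length in GENCODE 29, the WT level was 57.6 ± 5.08 CPM per kb (SD, n = 3) for LY96, 16.1 ± 0.375 for MYD88, 5.20 ± 0.434 for TLR4, 3.36 ± 0.147 for TLR1, 0.884 ± 0.0692 for TLR6 and 0.235 ± 0.0489 for TLR7. Each of these steps was larger than the spread of its neighbours, whereas TLR2, TLR9 and CD180, all under 0.01 CPM per kb, were not distinct. In the clone the same 6 genes kept that order, with LY96 at 56.6 ± 1.86, TLR4 at 1.77 ± 0.0431 and TLR1 at 0.387 ± 0.0542 CPM per kb (SD, n = 3). There TLR7 (0.0709 ± 0.0232) and CD180 (0.0563 ± 0.0221) lay within their spread. The exonic length counts the bases of all annotated transcripts, 13272 for TLR4 and 607 for LY96, and a level per kb is too low where the cells use only the shorter forms.

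The members also differed in how much their libraries varied. The coefficient of variation within a group was 4.37% in WT and 14.0% in the clone for TLR1, where counting alone gives 3.09% and 9.61%. For TLR7 it was 20.8% and 32.7%, where counting alone gives 10.9% and 20.9%. The 0.361% of MYD88 in the clone was below the 1.74% that counting alone gives, so the closeness of those 3 libraries is no measure of their precision.

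Windows around the start were searched for 4 motifs in the 6 members that have an entry in the RefSeq promoter table (build GRCh38.p14), from 250 bases before to 50 after the RefSeq start, on both strands. The motifs were GAGGAAG, the core bound by PU.1 and related ETS factors, an interferon response element (GAAA, any 2 bases, GAAA), the octamer ATGCAAAT and the TATA box TATAAA. The sequence is shown for TLR6, since it precedes the start that 1 TLR1 transcript also uses, as the 250 bases before the start at chr4:38856818-38857067 on the minus strand, with the match in capitals.
TLR6: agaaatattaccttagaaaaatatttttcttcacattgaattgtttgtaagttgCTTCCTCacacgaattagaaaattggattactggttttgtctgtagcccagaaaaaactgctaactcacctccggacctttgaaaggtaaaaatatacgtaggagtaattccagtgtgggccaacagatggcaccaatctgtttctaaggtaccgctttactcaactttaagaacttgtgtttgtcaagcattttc
For TLR4 (chr9:117704153-117704402) and MYD88 (chr3:38138411-38138660), 228 and 183 of the 250 bases before the RefSeq start lie in an untranslated first exon of transcripts that start earlier in GENCODE 29, so matches there need not lie upstream of the start in use. In TLR2 210 of these bases and in TLR9 all 250 are likewise annotated as untranslated there. GAGGAAG or its reverse complement occurred 4 times in TLR4, 2 times in TLR9 and 1 time each in TLR6 and MYD88. The interferon element occurred 1 time in MYD88, and no matches overlapped. Of 27305 promoter windows of 300 bases, 13.4% held GAGGAAG, 3.65% the interferon element, 1.80% the octamer and 12.0% the TATA box. Among the 6 members with an entry, 4 held GAGGAAG (TLR4, TLR6, TLR9 and MYD88), and TLR9 also held the octamer and the TATA box. The windows of TLR2 and CD180 held none of the 4 motifs. SPI1, which encodes PU.1 and is named here after its values were seen, was at 43.4 ± 1.15 CPM in WT and 18.4 ± 1.23 CPM in the clone (SD, n = 3), and whether this has a part in the values of the receptors was not tested.

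The other human Toll-like receptors were low throughout. TLR3, the receptor for double-stranded RNA, which signals without MYD88, had 67, 87 and 73 counts in WT and 10, 0 and 3 in the clone. It fell, with a log2 change of -3.95 ± 0.541 (SE; edgeR adjusted p = 6.65e-06), or -5.38 without CD38 KO replicate 1, which held 10 of the 13 counts. TLR3 passed the filter only through the WT libraries, so that it had to differ, and the call is not read as support. TLR5, the flagellin receptor, had 48, 56 and 53 counts in WT and 4, 21 and 46 in the clone. The libraries of the clone were far apart, and by CPM CD38 KO replicate 3 lay within the range of the WT libraries. The log2 change of -0.99 had an edgeR adjusted p of 0.162 (0.00801 without CD38 KO replicate 3, with -1.88). TLR8 had at most 3 counts in any library.

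More pathway genes fell than rose around the receptors. Of 72 pathway genes listed (other receptors, accessory proteins, adaptors, effector kinases and factors, and negative regulators), 63 were tested, 35 fell (55.6%) and 10 rose (15.9%), with a median log2 change of -0.23, where 21.6% of all tested genes were lower and 22.8% higher. The members' own median was -1.55, and 4 of the 7 tested members fell at least 2-fold against 8 of the 63 pathway genes and 5.26% of all tested genes. TLR3 is included in the 35 and the 8 pathway genes that fell and in their median, although it passed the filter only through the WT libraries.

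Among 21 proteins that fold, carry or cut the receptors, 16 were tested, 10 fell (62.5%) and 2 rose (12.5%), beside the 21.6% lower and 22.8% higher of all genes. The chaperone HSP90B1 (gp96), which folds most Toll-like receptors, went from 2167 ± 33.7 to 1423 ± 24.8 CPM (SD, n = 3). The endosomal proteases CTSS and LGMN, which can cut TLR7 and TLR9, had log2 changes of -0.76 and -0.63, and CXorf21 (TASL), which links the endosomal receptors to IRF5, -1.01. UNC93B1, the escort of the endosomal receptors, named after its values were seen, was abundant in both groups, at 580.5 ± 12.9 CPM in WT and 466.7 ± 19.3 CPM in the clone (SD, n = 3; log2 change -0.32).

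Of 14 adaptors and kinases near the receptors, 13 were tested, 8 fell (61.5%) and 2 rose (15.4%), with a median of -0.38, beside the 21.6% lower and 22.8% higher of all genes. The tyrosine kinase BTK went from 11.2 ± 0.945 to 3.33 ± 0.543 CPM (SD, n = 3; log2 change -1.75), and the adaptor PIK3AP1 (BCAP) and the ubiquitin ligases PELI1 and PELI3 had log2 changes of -1.07, -0.41 and -0.81. The 2 that rose, named after their values were seen, were IRAK1, from 643.3 ± 34.7 to 725.5 ± 11.5 CPM (SD, n = 3), and IRAK2 (log2 change 0.40). IRAK4 was not called (-0.09). The 14 genes summed to 953 to 1031 CPM in WT and 1006 to 1035 CPM in the clone. Of 18 effectors 9 fell and 2 rose (11.1%). IRF5, which MYD88 activates, went from 358.2 ± 9.58 to 233.4 ± 0.923 CPM (SD, n = 3), and the kinases TBK1 and IKBKE and the ubiquitin-conjugating enzyme UBE2N had log2 changes of -0.63, -1.08 and -0.52. Of 14 tested negative regulators 7 fell, among them the deubiquitinases TNFAIP3 (-0.78) and CYLD (-0.47), and 4 rose (28.6%), among them TRAFD1 (0.69) and ATF3 (0.40).

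**Figure D5:**
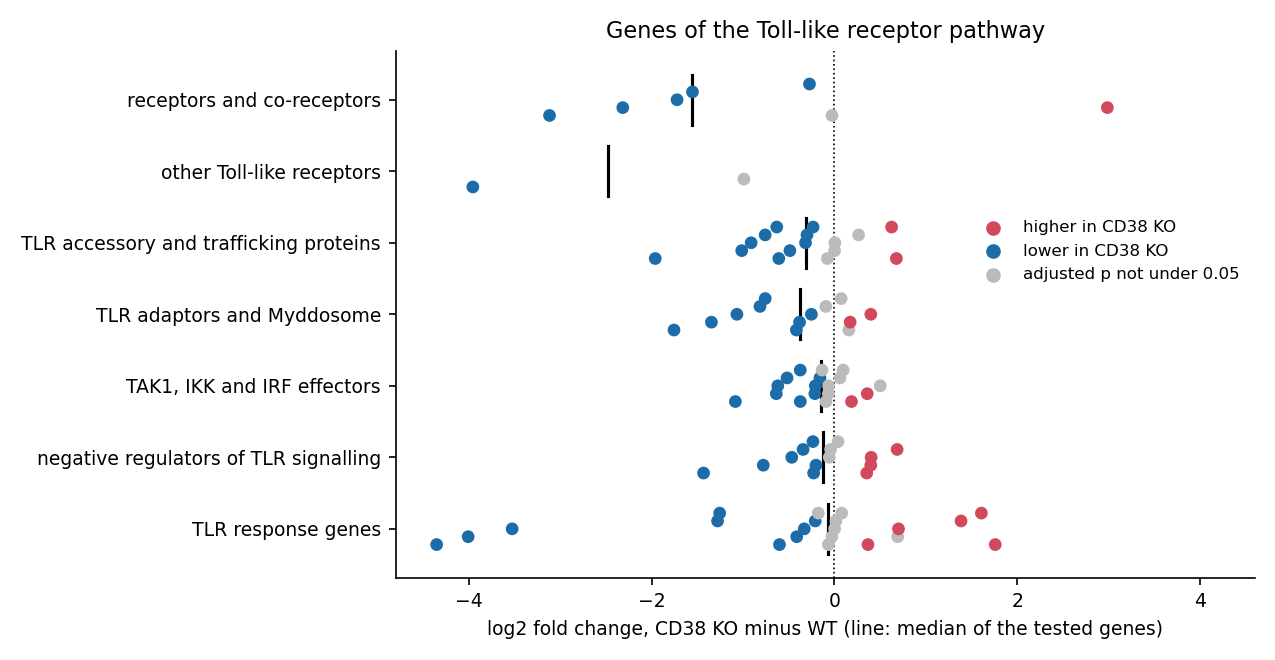
Log2 fold change of each tested gene by list, coloured by its call, with a vertical line at the median of the list. The members spread from -3.12 to 2.99, and the medians of the accessory, adaptor, effector and regulator lists lie between -0.38 and -0.13.

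By the likeness rule, the pathway gene whose log2 CPM followed a member most closely over the 6 libraries was IRF5 for TLR4 (Pearson's r = 0.998) and for MYD88 (0.994), DUSP1 for TLR1 (0.998), CTSB for TLR6 (0.993) and TMED7 for LY96 (0.731), out of 63 genes. These values are a description, since any gene that differs between the groups correlates with any other over these libraries.

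Markers of other cell types that use Toll-like receptors were read in the same libraries. Of 12 monocyte, macrophage and neutrophil markers 2 passed the filter, S100A8 and MARCO had 0 counts in every library, LYZ had at most 4, and the list summed to 2.53 to 3.09 CPM in WT and 1.37 to 1.77 CPM in the clone. ITGAM, which accounts for most of the sum in WT, fell (log2 change -2.18), whereas CSF1R was not called (0.10). The 9 B cell markers summed to 78.05 to 83.2 CPM in WT and 43.2 to 43.9 CPM in the clone, mostly from CR2 and CD79B, and so moved in the same direction as the receptors. The part of these cell types in the result was not tested. The 8 dendritic cell markers summed to 143.1 to 153.9 CPM in WT and 142.7 to 149.7 CPM in the clone. All 4 that were tested were called changed, as were 44.4% of all tested genes. LAMP3 went from 116.9 ± 4.99 to 88.3 ± 4.94 and XCR1 from 12.1 ± 1.09 to 5.03 ± 0.838 CPM, and CLEC9A from 20.4 ± 0.483 to 51.3 ± 3.26 and IL3RA from 0.321 ± 0.0257 to 0.719 ± 0.234 CPM (SD, n = 3). The call of IL3RA was lost without CD38 KO replicate 2 (edgeR adjusted p = 0.0658). The 10 T and NK cell markers summed to 63.6 to 71.1 and 60.7 to 65.1 CPM in WT and in the clone, mostly from NCAM1. Of the 5 tested, 1 rose (20.0%) and 1 fell (20.0%), beside the 22.8% higher and 21.6% lower of all genes. CD3E rose from 0.979 ± 0.0760 to 4.83 ± 0.359 CPM (SD, n = 3), and NCAM1 fell (log2 change -0.19, edgeR adjusted p = 0.00653). The fall of NCAM1 was not called without WT replicate 1 or without CD38 KO replicate 3 (edgeR adjusted p of 0.0502 and 0.0603).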

How the data were processed

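Per the labels' protocols, double-stranded cDNA was made from total RNA with a SMARTer kit for low input. The authors deposited raw read counts for every gene and library in a single table. STAR 2.7.9a, Partek and DESeq2 appear in the submitters' processing notes, with no role for any of them. Which build, annotation, counter and strand setting the authors used is not given in the sources used here. Of 60871 lines, 200 repeated an identifier with the same counts and were dropped. Counts were tested in R 4.3.3 with edgeR 4.0.16 (TMM, filterByExpr, robust quasi-likelihood fit, no covariate), on all genes, and the procedure was tested on simulated data. The simulated data gave all genes the same spread and changed only genes of at least 1 CPM, so they do not cover genes as low as CD180. The SE is the size of the log2 change over the square root of F. Positions came from GENCODE 29, joined by Ensembl identifier, and promoters from the RefSeq table, and either may differ from the authors' annotation. Counting intervals are exact (Clopper-Pearson based, 95%) and describe counting error alone: PCR copies without molecular identifiers are not independent.

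The members and gene lists were chosen with earlier results of these data known. All 10 members are named, with TLR3, TLR5, TLR8 and CD38, and up to 4 genes per list with the smallest adjusted p; all other genes were named after their values were seen. The likeness rule took members with at least 5 CPM in 1 group and log2(CPM + 0.1). The 16 alternatives were scaling by RLE, by the upper quartile or by library size alone; dropping the filter or keeping genes with 1 CPM in 3 libraries; DESeq2 1.42.0 and limma-voom (limma 3.58.1); a block for the replicate number; testing for more than a 2-fold change; fitting protein-coding genes alone; and leaving out each library.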

Additional observations from a re-analysis of the deposited data

How the results depend on the processing

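Across the 16 alternatives no member that was called changed its direction. TLR1, TLR4 and TLR6 were called lower in each of them, and CD180 was called higher in each that tested it. The calls of CD180 are not read as support, for the reason given above. Against a 2-fold change 3 members were called lower and 1 higher, 3 pathway genes lower and 0 higher, and 1061 of all genes; TLR7 (edgeR adjusted p = 0.0784) and MYD88 (1.00) were no longer called, which follows from the stricter null hypothesis. With the filter at 1 CPM in 3 libraries 0 members were higher, since CD180 was not tested there. With the replicate number as a block (replicate block) 5 members were lower, 1 was higher and 8918 genes were called; the numbers do not pair the libraries, as same-numbered libraries had correlations of -0.0207 to 0.0337 in their deviations from the group means. TLR5 was called lower without a filter (adjusted p = 0.0363), with limma-voom (0.0320) and with the replicate block (0.0347); the cause was not tested. TLR10 had adjusted p of 0.00457 to 0.0766 in the 5 fits that tested it. Those that left out a library kept it only through WT libraries, and their calls are not read as support. Library size alone moved the median of all genes by -0.0832 (log2) and left the members' calls in place. Over the alternatives the log2 change lay between -3.20 and -3.00 for TLR1, -1.63 and -1.51 for TLR4, -2.47 and -2.15 for TLR6, -1.93 and -1.48 for TLR7 and -0.36 and -0.26 for MYD88. Depth limits TLR2, TLR9, TLR10 and CD180, with at most 28 counts in any library. For TLR9 the treatment of reads from the bases shared with AC097637.1 is also unknown.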

Other observations

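Genes that Toll-like receptors are known to induce moved in both directions. Of 27 such response genes listed, 21 were tested, 9 fell and 5 rose, with a median log2 change of -0.07, where 21.6% of all tested genes were lower and 22.8% higher. The chemokine CCL5 went from 45.6 ± 1.58 to 3.96 ± 0.199 CPM (SD, n = 3; log2 change -3.52, edgeR adjusted p = 3.01e-18). The NF-kB cofactor BCL3 rose from 46.95 ± 0.983 to 159.2 ± 8.91 CPM, the adhesion molecule ICAM1 from 49.9 ± 2.46 to 152.4 ± 1.80 CPM and the chemokine CCL4 from 156.9 ± 4.09 to 410.3 ± 20.3 CPM (SD, n = 3).

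Named here after their values were seen, the interferon-induced chemokine CXCL10 had 135, 170 and 154 counts in WT and 6, 10 and 4 in the clone, and the co-stimulatory molecule CD86 went from 29.7 ± 1.14 to 12.2 ± 0.460 CPM (SD, n = 3). CXCL10 is counted above among the response genes that fell, as is CD83, with 28, 14 and 18 counts in WT and 0, 0 and 3 in the clone. Both passed the filter through the WT libraries, and their calls are not read as support. The cytokines IL6, TNF, IL1B and IFNB1 were too low to test.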
